A study of Equus caballus with 32 samples.

Results

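Genes of basophils and eosinophils were followed in 32 mares of the Welsh Pony breed, from whole blood taken 30 days after weaning. The list held 9 genes, FCER1A, MS4A2, HDC, SLC18A2, IL5RA, PTGDR2, KIT, GATA2 and CPA3, and a probe was taken when its file gave one of these symbols. That rule found 15 of the 43987 probes on the array, belonging to 8 of the 9 genes. No probe carried the symbol CPA3, the gene of a mast cell and basophil carboxypeptidase, so it has no value here. The blood of 16 mares came from a progressive weaning and that of 16 mares from a brutal weaning, and every mare gave 1 single-colour Agilent array. The labels say no more of either procedure and give no age, and all the animals were females of the same breed with no other treatment named. The arrays lie on 4 slides of 8, each with 4 mares of either group.

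Basophils and eosinophils are rare granulocytes of the blood. Basophils carry the high-affinity IgE receptor, made in these cells of a ligand-binding alpha chain (FCER1A), a signal-amplifying beta chain (MS4A2) and a shared gamma chain, and release histamine when bound IgE is cross-linked. Eosinophils depend on interleukin 5, whose receptor alpha chain is IL5RA, and follow eotaxins through the chemokine receptor CCR3. PTGDR2 is the receptor through which prostaglandin D2 attracts both cells, KIT the stem cell factor receptor of mast cells and progenitors, and GATA2 a transcription factor of the basophil and mast cell lineages.

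How well each gene was measured differed with its probes and, as given below, with the row of the array. The probes on which the results turn are shown here 5′ to 3′ as the files give them. HDC, the enzyme that makes histamine from histidine, has 3 probes shifted along 1 stretch, and the capitals mark the 20 bases common to them. The files place them on the plus strand of chromosome 1, at chr1:137212596-137212655, chr1:137212576-137212635 and chr1:137212556-137212615 in the order printed.
HDC probe A_69_P098481: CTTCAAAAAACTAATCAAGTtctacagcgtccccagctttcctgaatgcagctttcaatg
HDC probe A_69_P098482: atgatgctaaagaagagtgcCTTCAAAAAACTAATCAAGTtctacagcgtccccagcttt
HDC probe A_69_P098483: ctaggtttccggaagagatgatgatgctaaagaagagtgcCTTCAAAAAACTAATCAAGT
The first of them stood well above background on 15 of 16 arrays after progressive weaning and on 14 of 16 after brutal weaning. The second did so on 5 and 4 arrays and the third on 3 and 2. Neighbouring windows of 1 transcript therefore differed in how often they were measured, and across mares the first probe correlated with the second at r = 0.62 and with the third at r = 0.44.

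IL5RA has 2 probes that meet end to end in the annotation, of which the second spans 3282 bases of the genome and so crosses at least 1 splice junction. The capitals mark a stop triplet that closes the only frame of the first probe with no earlier stop. They lie on the plus strand at chr16:12827790-12827849 and chr16:12824508-12827789.
IL5RA probe A_69_P055151: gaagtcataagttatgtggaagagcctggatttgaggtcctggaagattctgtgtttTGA
IL5RA probe A_69_P055152: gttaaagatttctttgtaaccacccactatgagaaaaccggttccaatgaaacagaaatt
The first stood above background on 12 progressive and 14 brutal arrays, the second on 8 and 5, and they correlated at r = 0.86. PTGDR2 has 1 probe, on the minus strand at chr12:10974191-10974250, which was above background on 14 progressive and 15 brutal arrays.
PTGDR2 probe A_69_P010346: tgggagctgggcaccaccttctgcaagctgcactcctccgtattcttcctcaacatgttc
The file headers name the EquCab1 build for these coordinates. The build could not be checked here, and the coordinates should be read with that limit.

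FCER1A has 3 probes, A_69_P000776, A_69_P000777 and the custom Oligo-104, and MS4A2 has 1, A_69_P005126. All 4 stood above background on 16 progressive and 16 brutal arrays. Only the first 30 bases of the 2 probes used below are given.
FCER1A probe A_69_P000776: cacggctttgcagaattgcatcattaaact
MS4A2 probe A_69_P005126: caagctctttgtttaaggggctacaggcaa
The 3 FCER1A probes correlated with each other across mares at r = 0.991 to 0.998. The second of them and Oligo-104 share 40 bases and are not separate measurements, while the first shares at most 10 bases with either.

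The other probes were dim. KIT was above background on 8 progressive and 11 brutal arrays with 1 probe and on 1 and 0 with the other, and the probes did not follow each other (r = -0.00). SLC18A2, the vesicular transporter that loads histamine and other amines into granules, was above background on 7 and 8 arrays with 1 probe and on 1 and 0 with the other (r = 0.01). GATA2 was above background on 5 progressive and 4 brutal arrays with its single probe. Testing required a signal above background on 8 or more arrays in either group of 16, which 10 of the 15 probes and 7 of the 8 genes had, GATA2 being the exception. Each gene is described below by its brightest tested probe. Detection of these probes also went with the row of the array on its slide (1 or 2, by the barcode). KIT and IL5RA were above background on every row 1 array, but KIT on few of row 2. SLC18A2 was above background mostly on row 1, and every PTGDR2 and HDC miss lay on row 2. Each row of a slide held as many progressive as brutal mares, and the cause was not tested.

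Levels are log2 signals relative to the 75th percentile of the same array, so that a difference of 1 is a doubling, and levels of different probes cannot be set against each other. FCER1A, the IgE-binding chain, had a lowest level of 2.66, a median of 3.75 and a highest of 5.52 in progressive mares, against 2.68, 4.02 and 5.36 in brutal mares. The groups overlapped over almost their whole range, and the most distant mares of the 32 differed 7.26-fold. MS4A2, the beta chain, had a lowest level of -3.48, a median of -2.39 and a highest of 0.07 in progressive mares, against -4.29, -1.78 and -0.23 in brutal mares. Here the mares spanned 20.5-fold, with the lowest mare brutal and the highest progressive.

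HDC ran between -4.30 and -2.13 around a median of -3.82 in progressive mares, against -4.91 to -3.02 around -3.62 in brutal mares. Progressive 11 and progressive 5 stood above all other mares in HDC, and the same mares were among the 3 highest in FCER1A. SLC18A2 ran between -6.71 and -4.38 around -5.53 in progressive mares, against -6.35 to -4.80 around -5.16 in brutal mares. Its mean was taken over spots of which many were not above background.

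IL5RA had a lowest level of -5.54, a median of -4.36 and a highest of -2.25 in progressive mares, against -5.54, -4.00 and -1.89 in brutal mares. The spread over the 32 mares was 12.6-fold, with high and low mares in either group. PTGDR2 ran between -5.10 and -2.90 around -4.24 in progressive mares, against -4.70 to -3.14 around -4.27 in brutal mares. KIT ran between -6.10 and -4.01 around -5.11 in progressive mares, against -5.50 to -4.17 around -5.06 in brutal mares. GATA2 ran between -6.79 and -3.31 around -5.61 in progressive mares, against -6.35 to -3.87 around -5.36 in brutal mares. None of these genes separated the groups.

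**Figure D1:**
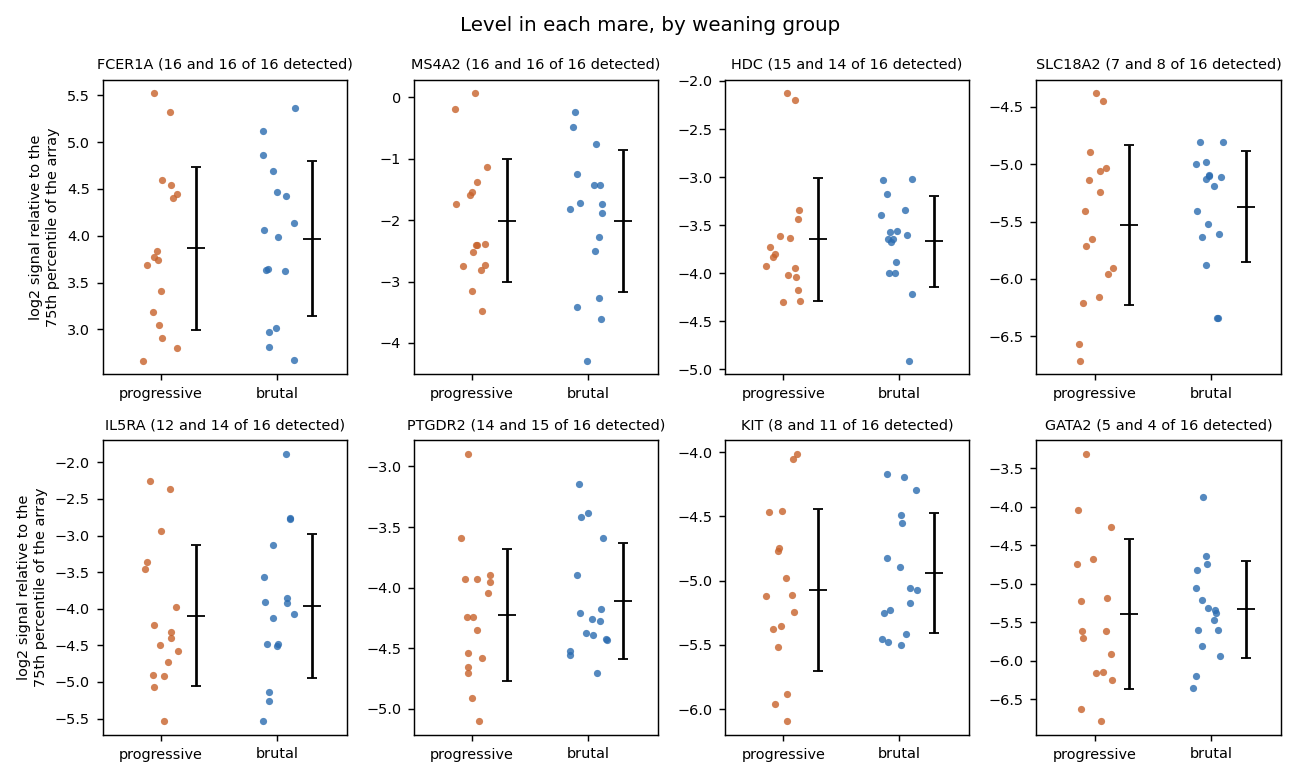
Each point is 1 mare (16 progressive, left, and 16 brutal, right, per panel), the vertical axis is the log2 signal relative to the 75th percentile of the array, and the black marks give the mean and SD. Titles give the progressive and then the brutal arrays on which the probe stood well above background, and in every panel the groups overlap, as in FCER1A with means of 3.87 and 3.97.

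The mares differed from each other in these genes more than they did in most. The SD over 32 mares was 1.07 for MS4A2, 0.96 for IL5RA and 0.84 for FCER1A, and 99.2%, 98.6% and 97.5% of the 9693 tested genes had a lower SD, with a median SD of 0.30 over all genes. HDC, SLC18A2, KIT and PTGDR2 had SDs of 0.56, 0.60, 0.55 and 0.51. Repeated spots of a probe on 1 array share the RNA, labelling, hybridisation and scaling, so they show spot error alone. The SD between copies of a probe on 1 array was 0.04 for FCER1A probe A_69_P000777 and 0.03 for Oligo-104, far below their SDs of 0.85 and 0.86 over mares. It was 0.27 for the first IL5RA probe, also well below the spread over mares, and 0.54 for the second, whose SD over mares was 1.06. For PTGDR2, KIT and SLC18A2 it was 0.56, 0.49 and 0.44, close to the spread over mares. The spot error that this leaves on a mean of 2 copies was 0.40, 0.34 and 0.31. The first HDC probe, MS4A2 and the first FCER1A probe have 1 spot an array, and no such value. The second HDC probe, which was not tested, has 2, with an SD between copies of 0.78 against 1.01 over mares.

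The comparison of the weaning groups asked whether these genes differed 30 days later. No member passed the threshold of limma's moderated test with Benjamini-Hochberg adjustment over all genes (adjusted p of at least 0.996), and neither did any of the 9693 genes tested (0%), nor any of the 26368 probes (0%). At an unadjusted p under 0.05 the count was 0 of the 7 members, against 247 genes or 2.55% and 715 probes or 2.71% over the whole array. The members were lower after progressive weaning in 6 of 7 cases, where 57.7% of all tested genes and 55.1% of all tested probes were lower, and their median difference was -0.11 against -0.02 over all genes. Of the 6, MS4A2 was lower by almost nothing (-0.0015) and turned higher with quantile scaling (0.0035) or a percentile over probes detected on all arrays (0.019), while HDC turned lower with normexp background correction (-0.017). IL5RA was lower by its brightest probe (-0.13), but its other tested probe was higher (0.099). The mean of its tested probes gave -0.016.

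FCER1A averaged 3.87 ± 0.87 in progressive and 3.97 ± 0.83 in brutal mares (SD, n = 16 each), a difference of -0.10 with a 95% interval of -0.68 to 0.48. MS4A2 averaged -2.01 ± 1.0 in progressive and -2.01 ± 1.16 in brutal mares, with an interval of the difference of -0.74 to 0.74. HDC differed by 0.02 (-0.37 to 0.41) and SLC18A2 by -0.16 (-0.57 to 0.26). IL5RA averaged -4.09 ± 0.97 in progressive and -3.96 ± 0.98 in brutal mares, a difference of -0.13 (-0.80 to 0.54). PTGDR2 differed by -0.11 (-0.47 to 0.24) and KIT by -0.13 (-0.52 to 0.25). As ratios, the intervals run from 0.576 to 1.45 for IL5RA and from 0.723 to 1.18 for PTGDR2. Differences inside these bounds are not excluded by these data. GATA2, below the filter, differed by -0.06 ± 0.28 (SE) in a fit without the filter. In blood, fewer cells of a type and less RNA per cell cannot be told apart.

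Within slides 1 to 4, each of 4 mares a group, FCER1A differed by -0.69, 0.43, 0.60 and -0.74, and MS4A2 by -0.74, 0.59, 1.18 and -1.04. Both genes were lower after progressive weaning on slides 1 and 4 and higher on slides 2 and 3. IL5RA was lower on 3 slides and higher on slide 4 (0.43), and PTGDR2 showed the same signs, with 0.18 on slide 4. No difference of a member on a single slide passed the adjusted threshold.

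**Figure D2:**
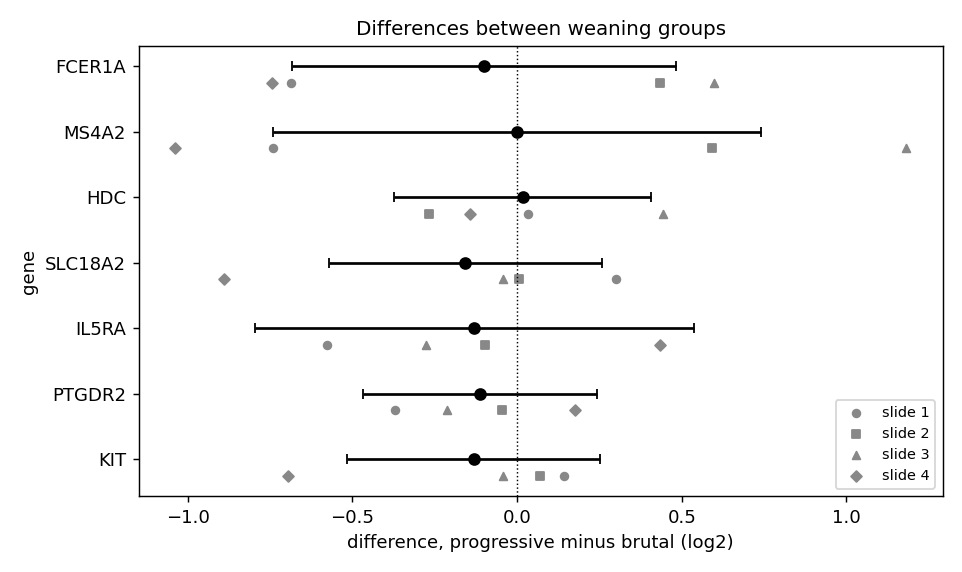
Black points give the progressive minus brutal difference in log2 level over 32 mares with its 95% interval, one gene a line, and grey symbols give the difference within each slide. All 7 intervals include 0, and the slide values of MS4A2 run from -1.04 to 1.18.

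Across mares some members varied together and others did not. Of the 21 pairs among the 7 tested members, 5 passed a two-sided permutation test of Pearson's r with Benjamini-Hochberg adjustment over the 21 pairs. The highest was MS4A2 with FCER1A, the chains of 1 receptor, at r = 0.951 (Spearman's rho = 0.955, p = 1e-05, the smallest that 100000 permutations can give, adjusted p = 0.00021). Each gene was the other's closest among all tested genes. The relation held within every slide (0.918 to 0.980), in progressive mares (0.949), in brutal mares (0.964), and without the 2 mares farthest from the median of MS4A2 (0.957).

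HDC, the histamine-forming enzyme, also varied with both chains, at a lower r. Its r was 0.580 with FCER1A (rho = 0.547, p = 0.00042, adjusted p = 0.0029) and 0.566 with MS4A2 (rho = 0.550, p = 0.00073, adjusted p = 0.0038). Without progressive 11 and progressive 5, the mares with the highest HDC, r fell to 0.397 (permutation p = 0.029, unadjusted) and 0.366 (p = 0.047). Leaving out the highest mares also narrows the range of HDC, which can itself lower r, so how far the relations rested on these 2 animals was not settled. Within slides r ran from 0.458 to 0.826 with FCER1A and from 0.461 to 0.783 with MS4A2. In progressive mares alone the values were 0.721 and 0.749, against 0.396 and 0.382 in brutal mares, where neither passed after adjustment, and the difference between the groups was not tested. SLC18A2 correlated with HDC at 0.502 (rho = 0.467, p = 0.0033, adjusted p = 0.014), at 0.472 without 2 mares, and at 0.417 to 0.751 within slides. In progressive mares alone it was 0.560 and in brutal mares alone 0.410, and neither passed (permutation test, adjusted p = 0.11 and 0.38). Its r with FCER1A was 0.394 and with MS4A2 0.361, which did not pass (adjusted p = 0.091 and 0.13).

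IL5RA and PTGDR2 varied together with r = 0.584 (rho = 0.526, p = 0.00039, adjusted p = 0.0029). IL5RA ranked 26 among all genes for PTGDR2. Within slides r ran from 0.479 to 0.714, and without progressive 15 and brutal 12 it was 0.398 (permutation p = 0.029, unadjusted). It was 0.473 in progressive mares alone, which did not pass (permutation test, adjusted p = 0.17), against 0.707 in brutal mares alone (adjusted p = 0.022), and the difference between the groups was not tested. Neither gene followed the IgE receptor. IL5RA had r = -0.206 with FCER1A (rho = -0.192, p = 0.26) and -0.231 with MS4A2, and PTGDR2 had -0.176 and -0.295, none past the threshold. Brutal 12, the mare with the highest IL5RA, had the lowest MS4A2 of all. KIT correlated with no other member past the threshold, its highest r being 0.258 with SLC18A2. GATA2, below the filter and so given as a description only, had r = 0.48 with FCER1A, 0.45 with MS4A2 and -0.15 with IL5RA.

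**Figure D3:**
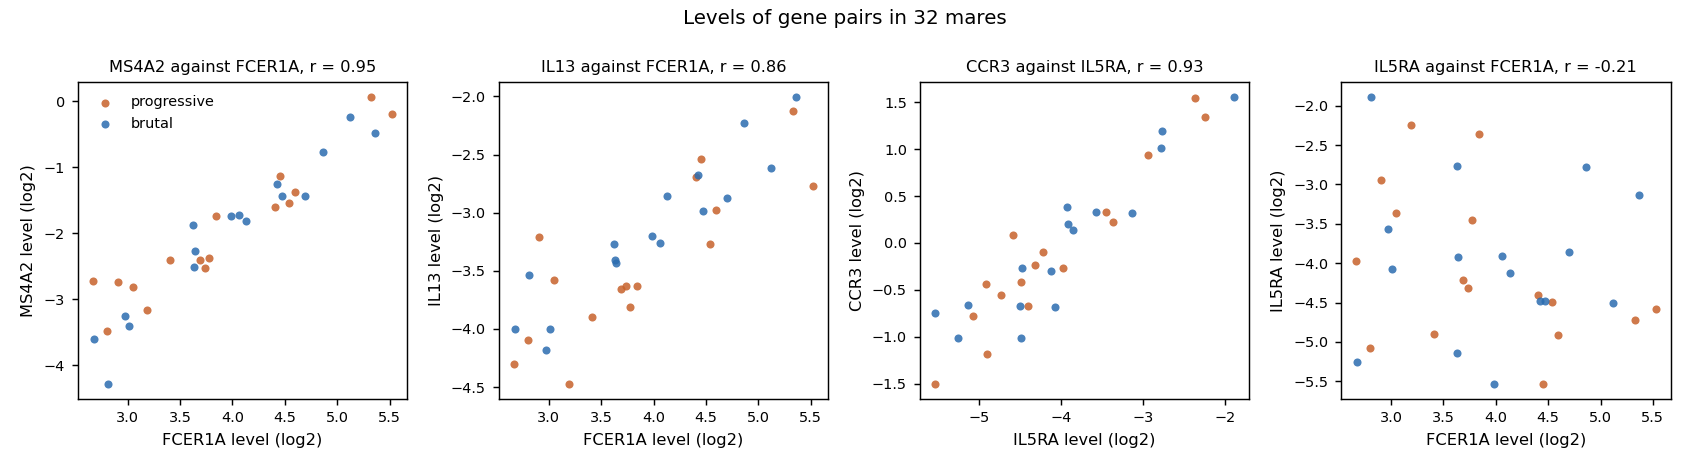
Each point is 1 mare, and the axes are log2 levels relative to the 75th percentile of the array. MS4A2 and IL13 rise with FCER1A (r = 0.95 and 0.86) and CCR3 rises with IL5RA (r = 0.93), while IL5RA against FCER1A shows a scatter (r = -0.21).

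The genes outside the list whose levels were most like those of each member were named by rank of r over the 32 arrays among 9525 genes, and as they were picked for a high r no p is given. For IL5RA they were EMR3, an adhesion receptor of human granulocytes and monocytes (r = 0.95), TSPAN8, a tetraspanin (0.94), and CCR3, the eotaxin receptor (0.93). For CCR3 r was 0.95 in progressive mares, 0.92 in brutal mares and at least 0.86 on every slide. CCR3 itself had a lowest level of -1.51, a median of -0.25 and a highest of 1.54 in progressive mares, against -1.02, -0.06 and 1.56 in brutal mares, and it stood above background on all 32 arrays. In all 8 genes had r of at least 0.8 with IL5RA, and the others, named after their values were seen, were ADAMDEC1, GAPT, PLA2G7, CEBPE and PDLIM1. CEBPE, a transcription factor of granulocyte maturation, had r = 0.84, and PLA2G7, which breaks down platelet-activating factor, 0.85.

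For FCER1A the closest genes outside the list were IL13, a cytokine of type 2 immunity (r = 0.86), STAB1, a scavenger receptor (0.86), and GNPTAB, an enzyme that marks lysosomal proteins for sorting (0.83). The same 3 genes led for MS4A2, at 0.85, 0.86 and 0.81. IL13 had a lowest level of -4.48, a median of -3.61 and a highest of -2.13 in progressive mares, against -4.18, -3.23 and -2.0 in brutal mares, and was above background on 31 arrays. STAB1 was above background on only 18. At r of at least 0.7, FCER1A had 9 such genes and MS4A2 had 8, of which 7 were shared, as genes with an r of 0.951 would share. None of the 9 was among the 12 of IL5RA. With r = -0.206 between FCER1A and IL5RA no gene can reach 0.7 with both, so neither count is a separate result. GNPTAB also led for HDC (0.73), followed by PON2, a paraoxonase (0.67), and MS4A7 (0.61).

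Of the 3 genes closest to PTGDR2 the second and the third were CLDN17 (0.70) and CD8A, the T cell co-receptor (0.69), and CCR3 stood at 0.62. CLDN17 was above background on 13 arrays only. For SLC18A2 they were TESPA1 (0.64), TTC38 (0.62) and GCC1 (0.62). When r was averaged over the 7 members, the leading genes reached no more than 0.42, with HOXB3, LOC100055651, HRH4, RHEX, GALM, PON2, TESPA1, GNPTAB, RAB37 and PLEKHG5 in that order. HRH4, the histamine receptor of granulocytes, had r = 0.67 with FCER1A and 0.65 with MS4A2, but also 0.45 with IL5RA and 0.44 with HDC.

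**Figure D4:**
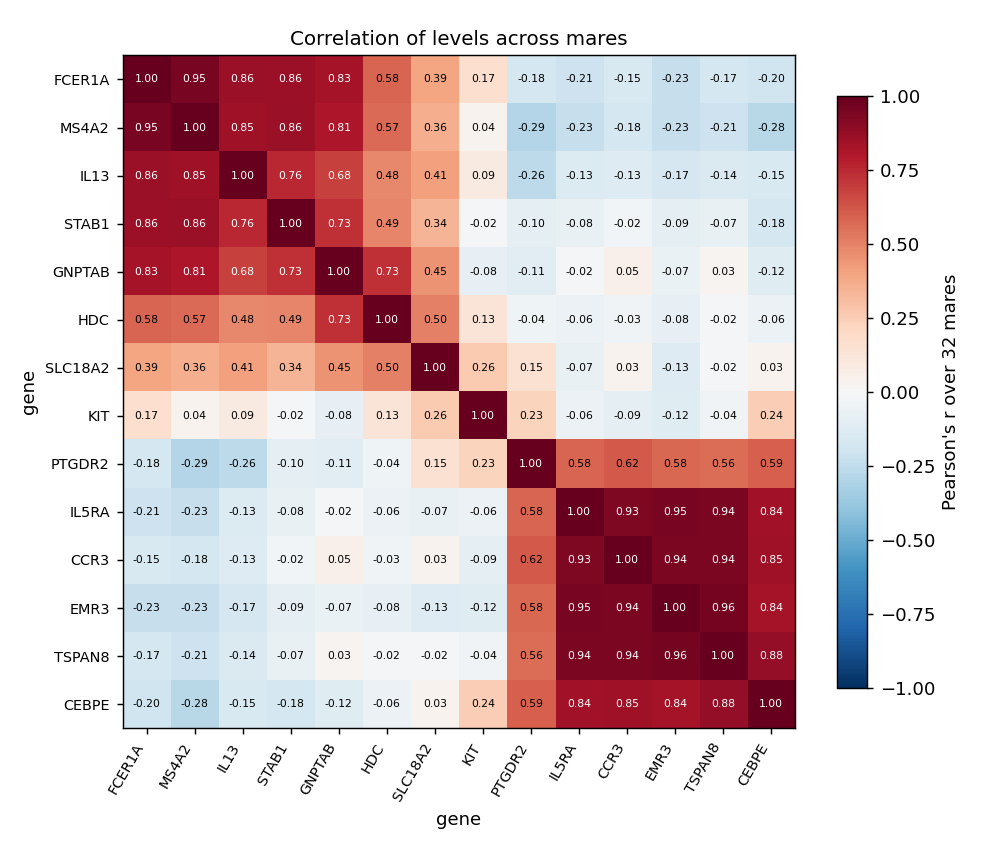
Cells give Pearson's r of log2 levels over 32 mares between the 7 tested members and some of the genes most like them, on a scale of -1 to 1. FCER1A, MS4A2, IL13, STAB1 and GNPTAB form a block at the upper left and IL5RA, CCR3, EMR3, TSPAN8 and CEBPE another at the lower right, with r between -0.28 and 0.05 from one to the other. The genes outside the list were picked for a high r in these arrays and set beside their members, so the blocks restate that choice.

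The closest genes to KIT were HES7 (0.91), OR10X1E (0.91) and GJD3 (0.90), and 224 of the 9525 genes had r of at least 0.8 with it, against 8 for IL5RA and 3 for FCER1A. Its level was lower on brighter arrays: r with the 75th percentile signal was -0.862 (rho = -0.820, permutation p = 1e-05, adjusted p = 0.00014 over 14 such relations), -0.858 without the 2 most distant arrays, and -0.692 to -0.980 within slides. For the 6 other members no such relation passed, the largest being that of PTGDR2 (-0.354, rho = -0.459, permutation p = 0.047, adjusted p = 0.33, and -0.749, -0.437, -0.673 and 0.117 on slides 1 to 4). SLC18A2 had r = -0.243, FCER1A -0.154 and IL5RA 0.000. The unscaled KIT signal ran from 9.44 to 26.0 units over the arrays, and r of its log2 with the log2 percentile was -0.61 before scaling. This relation was looked for after the genes most like KIT had been seen, and its part in the KIT values was not tested.

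**Figure D5:**
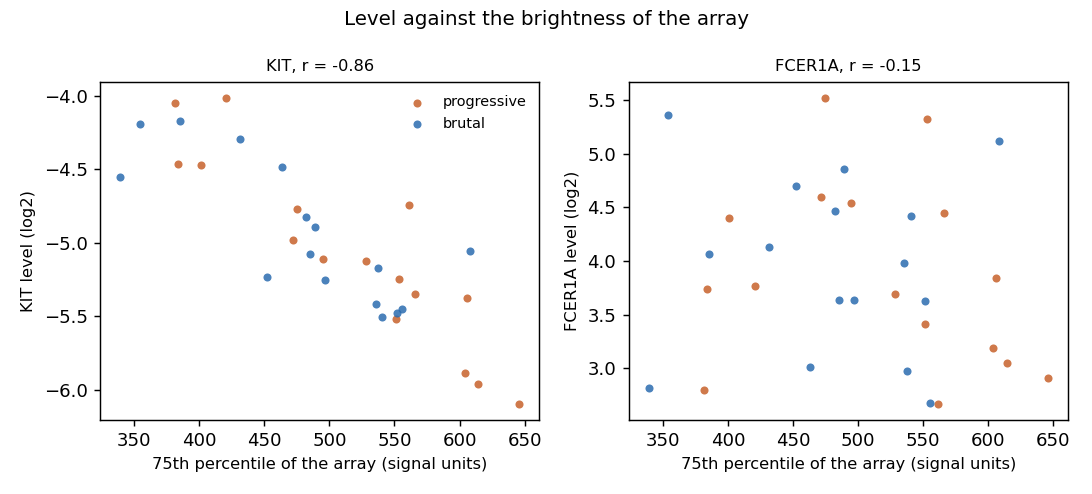
Each point is 1 array, with its 75th percentile signal on the horizontal axis and the log2 level of KIT (left) or FCER1A (right) on the vertical axis. KIT falls as arrays get brighter (r = -0.86), and FCER1A shows no such slope (r = -0.15).

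Markers of the cell types named were checked in the same arrays. Among eosinophil markers CCR3 was above background on 32 arrays, but EPX, the eosinophil peroxidase, on only 2, and PRG2 was not found by symbol. The mast cell tryptase TPSB2 and chymase CMA1 were not found by symbol either, and the progenitor marker CD34 was above background on 3 arrays. The cells are thus represented here by receptors, an enzyme, a transporter and transcription factors, and hardly by their granule proteins. Of 12 listed eosinophil markers 4 were tested, 0 were called, 4 were lower after progressive weaning and the median difference was -0.12. Over all tested genes 57.7% were lower. The 4 are not separate results: IL5RA and PTGDR2 were already counted as members, and CCR3 and CEBPE followed IL5RA (r = 0.93 and 0.84). The lowest p values in that list were those of CEBPE (-0.32, p = 0.24, unadjusted) and PTGDR2. Of 13 basophil markers 7 were tested with 0 called, 5 lower and 2 higher, and the leading pair were IL4 (0.20), above background on 15 arrays, and CD200R1 (-0.13). Among those not tested, ENPP3 and AKAP12 were above background on 1 array each and MS4A3 on 6. FCER1A stands on the mast cell and dendritic cell lists too. CCR3 is on the basophil list as well, and had r = -0.15 with FCER1A and -0.18 with MS4A2. Mast cell markers gave 6 tested and 0 called, and progenitor markers 3 tested and 0 called, FLT3 having the largest difference (0.16).

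No gene of the pathways around the members was called in limma's test, where none of the 9693 genes tested was (0%). A count of 0 called in any list here restates that result, and the lists include members already given above. In IgE receptor signalling 15 of 16 genes were tested, 10 lower and 5 higher, with a median of -0.03. FCER1G, named here as the gamma chain of the receptor, averaged 6.76 in progressive and 6.96 in brutal mares, and the smallest p values were those of PLCG1, a phospholipase (0.20, p = 0.11), and GAB2, an adaptor (-0.17, p = 0.15). In histamine handling 4 of 7 were tested, 2 lower and 2 higher, led by HNMT, which inactivates histamine (0.14), and SLC18A2. Prostaglandin D2 and leukotriene genes gave 5 tested, 4 lower, led by PTGS2, the inducible cyclooxygenase (-0.27), and PTGDR2. Among receptors of the interleukin 5 family and their signalling 6 were tested, 4 lower, led by CISH, a feedback inhibitor of cytokine receptors (-0.24, p = 0.068), and IL5RA. KIT and LMO2 (-0.05) led the 5 tested genes of the KIT and GATA network, whose ligand KITLG was above background on 1 array. Of type 2 immunity 5 of 11 were tested, led by IL13 (-0.26) and IL4, and IL5 itself was above background on 2 arrays. These counts stand beside 57.7% lower over all genes, and no list is called different from it.

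Other blood cells were set beside the members as scores, the mean standardised level of a marker list without the members and without genes held by several lists, such as CEBPE and FLT3. Of 56 relations between 7 members and 8 lists, 0 passed a permutation test of r with adjustment over the 56. The smallest p was that of SLC18A2 with dendritic cell markers (r = -0.457, rho = -0.415, p = 0.0083, adjusted p = 0.31). The next in size were KIT with platelet markers (0.422, rho = 0.436), PTGDR2 with natural killer markers (0.404) and KIT with T cell markers (0.402). All 13 tested neutrophil markers and all 7 platelet markers were lower after progressive weaning, with medians of -0.30 and -0.40 and 0 called, and the neutrophil score ran from -1.62 to 1.33 in progressive and from -1.27 to 1.1 in brutal mares. Lower genes numbered 6 of 8 among monocyte markers, 2 of 7 among dendritic cell, 3 of 12 among T cell, 2 of 8 among B cell, 6 of 10 among natural killer and 4 of 5 among erythroid markers, with 0 called in each. Beside these counts, 57.7% of all tested genes were lower. Markers of 1 cell type can vary together, so the genes of a list are not separate results, and no list is called different from that share. The part of these cells in the members' differences was not tested.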

How the data were processed

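Spot intensity values were deposited by the authors as scanner output. Per the file headers, version 10.10.1.1 of Agilent Feature Extraction had subtracted the background. The authors also deposited a series table of log2 values, with medians from 8.397 to 8.399 over arrays, whose normalisation none of the sources used here gives. Of 62976 spots 1319 were controls, and outlier spots (2483 over all arrays) were left out. Each processed signal was scaled to the 75th percentile of its own array (339 to 646), put on the log2 scale and averaged over spots. A probe stood above background on an array when a share of 0.5 or more of its spots did, by the software's own call. Arrays had 53.0% to 66.0% of spots above background, which with the number of arrays limits precision. The range was 59.8% to 66.0% on row 1 of the slides and 53.0% to 59.6% on row 2. Symbols came from the files or by accession. The tests were limma 3.58.1 in R 4.3.3 with group as the only term, two-sided, tested on simulated data, and permutation tests. The permutations were run in numpy 2.4.6, with the ranks for rho from scipy 1.17.1. Each array is 1 mare. The members and the 18 lists were chosen with earlier results of these data known. Genes were named by a fixed rule: the members, the 10 most like their mean, the 3 most like each, and 2 of each list by p. The markers EPX, PRG2, CCR3, TPSB2 and CMA1 were always named. Outside the rule, FCER1G, CD34, KITLG, IL5, ENPP3, AKAP12, MS4A3 and the further genes near IL5RA were also named. The lists of other blood cells are described by their counts, and CEBPE and FLT3 are named there only as genes held by several lists. The gene that ranked first for PTGDR2 is not reported here.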

Additional observations from a re-analysis of the deposited data

How the results depend on the processing

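No paired analysis was possible because nothing in the labels ties a progressive mare to a brutal one. No gene was called under any of 19 settings; 1 probe was called on slide 4 alone. No member was called in any of 136 alternative settings. These include a permutation test of each member's difference, whose smallest unadjusted p was 0.46 (SLC18A2). The others were limma refits, with a smallest adjusted p of 0.947. In 26 settings the sign changed, all of differences that had not passed, and the cause was not tested. On single slides these were PTGDR2 0.18 and IL5RA 0.43 (slide 4), KIT 0.14 and 0.069 (slides 1 and 2), SLC18A2 0.30 and 0.0046 (slides 1 and 2), HDC -0.27 and -0.14 (slides 2 and 4), MS4A2 0.59 and 1.18, and FCER1A 0.43 and 0.60 (slides 2 and 3). With a slide left out they were IL5RA 0.019 (slide 1), KIT 0.057 and SLC18A2 0.087 (slide 4), HDC -0.12 (slide 3), MS4A2 0.25 and FCER1A 0.10 (slide 1), and MS4A2 0.34 and FCER1A 0.12 (slide 4). Array weights gave IL5RA 0.14 and MS4A2 0.11, normexp background gave HDC -0.017, quantile scaling MS4A2 0.0035, a percentile over probes detected everywhere MS4A2 0.019, and leaving out progressive 16 MS4A2 0.052.

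Of 21 pairs 5 passed. The count was 9 with normexp, 7 with quantile scaling, 7 with values centred on each slide and 4 with the series table, where KIT and SLC18A2 had no values. It was 3 in progressive mares alone, 2 in brutal mares alone and 1 among members detected on all arrays, where fewer pairs or mares were tested. In the other settings run the count stayed at 5. MS4A2 with FCER1A stayed between 0.92 and 0.98 in every setting run. Leaving out progressive 16, an array that stood apart in earlier results, let 1 relation with a cell type score pass, SLC18A2 with dendritic markers (-0.58). Low signal limits every member other than FCER1A and MS4A2, which alone stood above background on all arrays.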
